A study of Mus musculus with 10 samples.

Results

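The forkhead family was followed in metanephric mesenchyme, the tissue of the early kidney from which nephrons and stroma form. Members were taken by name, as every gene whose symbol is Fox with a letter from a to s and a number, with Foxd1 and Foxd3 left out. This gave 35 genes, measured by 80 probe sets, of 18193 genes measured by 34945 probe sets with 1 gene symbol. The mutant group was 5 arrays of Wnt9b-/- mesenchyme at E11.5, and the wild-type group was 5 arrays of Wnt9b+/+ littermate mesenchyme of the same stage. The ureteric bud had been taken off in all samples after trypsin and pancreatin, and each array held its own RNA pool of 25 to 30 mesenchymes, so the spread between arrays is that between pools. The design text of the series calls the controls Wnt9b+/-, and the sample labels were followed here. Each gene is given by its brightest probe set, as a signal in array units or as log2(signal + 1), called log2 signal, and a difference is the mutant mean minus the wild-type mean of log2 signal. Wnt9b is a Wnt ligand made by the ureteric bud, and the question was how forkhead transcripts of the mesenchyme stand without it.

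Forkhead proteins are transcription factors that share a DNA-binding domain of the winged-helix type. FoxA proteins open closed chromatin in endoderm, FoxC and FoxF proteins pattern mesoderm and its mesenchyme, FoxM1 drives entry into mitosis, FoxO proteins are held out of the nucleus by insulin and Akt signalling, and FoxP proteins bind DNA as dimers with each other. In the mouse kidney, Foxc1 and Foxc2 act in the intermediate mesoderm, where loss of Foxc1 leads to duplicated kidneys and ureters.

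Canonical Wnt signalling acts on DNA through TCF/LEF factors, so the promoters of members were searched for the TCF/LEF core letters CTTTGAT and CTTTGAA and for the forkhead core letters TGTTTAC and TATTTAC, each on both strands. RefSeq promoter windows of 300 bases on GRCm38.p6 were matched for 22 of the 35 members, with 27 windows in all. A TCF/LEF match was held by 2 of these windows, in Foxa2 and Foxp1, against 8.65% of 32851 windows over all genes. A forkhead match was held by 1 window, in Foxa1, against 6.54% of all windows. These letters are a description of the windows and show no binding. No window was matched for 13 members, Foxp2 among them. The Foxp1 window is shown for its match, the Foxp4 window for the matched FoxP gene with the largest difference, and the Foxc1 window for the kidney regulator. Capitals mark the TCF/LEF match, on the opposite strand, which starts at base 46 of the Foxp1 window; the Foxp4 and Foxc1 windows hold neither set of letters.
Foxp1, chr6:99266466-99266765, minus strand: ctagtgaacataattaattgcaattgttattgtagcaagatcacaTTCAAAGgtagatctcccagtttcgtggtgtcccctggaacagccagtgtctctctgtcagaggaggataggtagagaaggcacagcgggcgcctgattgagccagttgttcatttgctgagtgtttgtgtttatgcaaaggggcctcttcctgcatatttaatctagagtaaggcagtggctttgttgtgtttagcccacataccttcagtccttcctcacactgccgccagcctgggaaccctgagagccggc
Foxp4, chr17:47924583-47924882, minus strand: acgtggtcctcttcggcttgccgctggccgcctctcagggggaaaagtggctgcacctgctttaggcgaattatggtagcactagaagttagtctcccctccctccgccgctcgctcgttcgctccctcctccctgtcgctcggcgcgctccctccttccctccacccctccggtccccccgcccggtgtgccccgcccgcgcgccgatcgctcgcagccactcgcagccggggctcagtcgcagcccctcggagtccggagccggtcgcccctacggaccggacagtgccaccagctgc
Foxc1, chr13:31806396-31806695, plus strand: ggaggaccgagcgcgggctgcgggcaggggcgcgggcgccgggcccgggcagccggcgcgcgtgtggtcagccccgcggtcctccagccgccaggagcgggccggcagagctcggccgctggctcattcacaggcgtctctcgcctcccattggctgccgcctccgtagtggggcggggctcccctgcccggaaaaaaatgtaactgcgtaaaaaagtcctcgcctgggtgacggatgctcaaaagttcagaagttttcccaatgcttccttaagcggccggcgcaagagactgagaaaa

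No forkhead gene passed the test over all genes, limma with Benjamini-Hochberg adjustment at an adjusted p under 0.05, where 1 of 18193 genes passed (0.0055%). At an unadjusted p under 0.05, 2 of 35 members were higher in the mutant, Foxp2 and Foxp4, against 3.41% of all genes. At the same threshold 0 of 35 were lower, against 2.08% of all genes. The 5 mutant arrays all lay above the 5 wild-type arrays for 1 of 35 members, Foxp2, against 0.654% of all genes, and all below them for 0 of 35, against 0.555%. In all, 20 of 35 members had a positive difference, against 54.9% of all genes, and the median difference was +0.049 over the members and +0.025 over all genes. By these counts the family lay near the background of all genes.

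**Figure D1:**
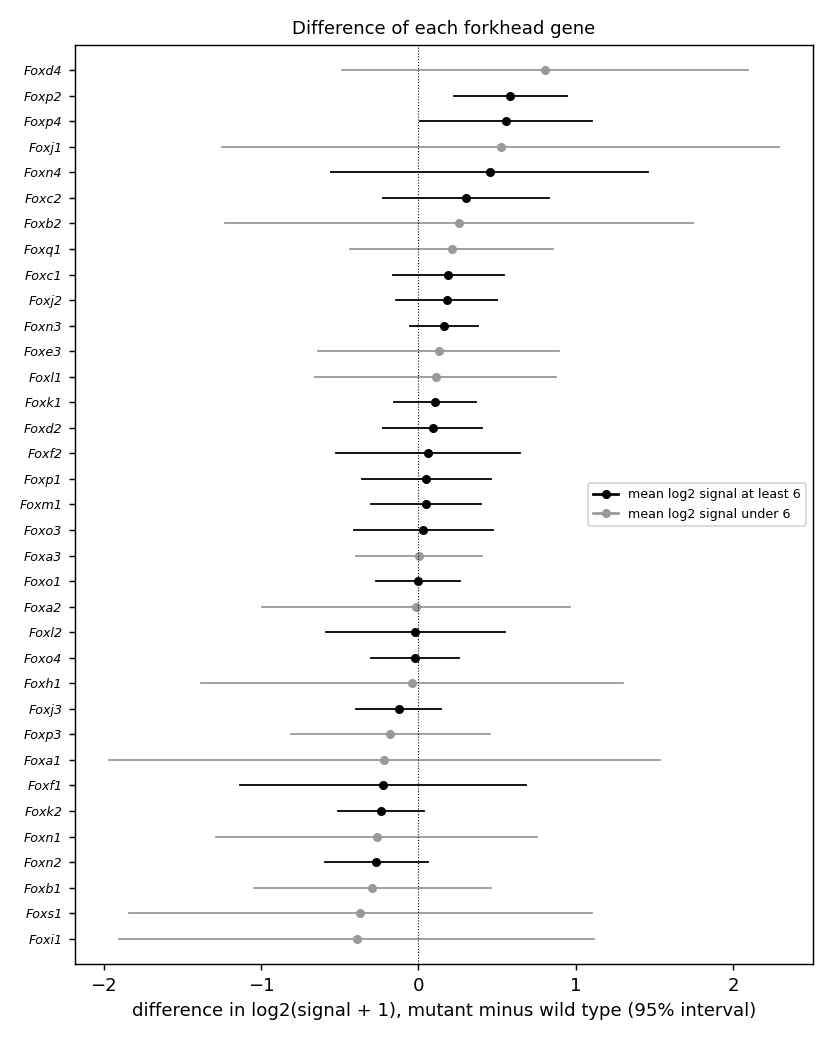
Difference in log2(signal + 1) between 5 mutant and 5 wild-type arrays for each of 35 forkhead genes, with its 95% interval from limma; black marks genes with a mean log2 signal of at least 6 and grey the dimmer ones. The intervals of Foxp2 and Foxp4 lie above zero, and those of the other 33 genes span it.

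The precision differed between members. The 20 genes with a mean log2 signal of at least 6 had a median SD within groups of 0.24, while the 15 dimmer genes had 0.79. Standard errors of the difference ran between 0.097 and 0.45 in the brighter set and between 0.18 and 0.79 in the dimmer one. Differences lay between -0.27 and +0.59 in the brighter set and between -0.39 and +0.81 in the dimmer one. On the log2(signal + 1) scale the change of the dimmest genes is understated.

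Among the FoxP genes, Foxp2 had the largest difference. It is a repressor known for its part in the development of lung and of brain circuits for vocal learning. Its signal was 1490.3, 1191, 1177, 2004 and 1592 in mutant replicates 1 to 5, against 959.8, 964, 968, 876 and 1112 in wild-type replicates 1 to 5. Every mutant array was thus above every wild-type array, with mutant replicate 4 the highest and mutant replicates 2 and 3 closest to wild type. The mean log2 signal was 10.51 ± 0.32 (SD, n = 5) in the mutant and 9.93 ± 0.12 (SD, n = 5) in wild type, a difference of +0.59 (SE 0.16, 95% interval 0.23 to 0.94) by limma. With an unadjusted p of 0.0044 in the limma fit, the difference did not pass over all genes (adjusted p = 0.56). After centring each array on its median, the difference was +0.53 and the groups overlapped.

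Foxp2 had 6 probe sets, and 5 of them were higher in the mutant on average. They share a target gene, so they are repeated readings of the same RNA and not replicates. On the second brightest the difference was +0.47 (SE 0.18), with mutant replicate 2 inside the wild-type range and the other mutant arrays above it. The next 3 by brightness gave +0.36 (SE 0.16), +0.56 (SE 0.18) and +0.30 (SE 0.17). The dimmest had signals of 8.84 to 62.0 in the mutant and 19.7 to 65.8 in wild type, and gave -0.21 (SE 0.51). Tested one by one, 4 of the 6 had an unadjusted p under 0.05, and none passed after adjustment (lowest adjusted p = 0.81 by limma). The mean over all 6 probe sets, the dim one included, differed by +0.34 (SE 0.17).

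**Figure D2:**
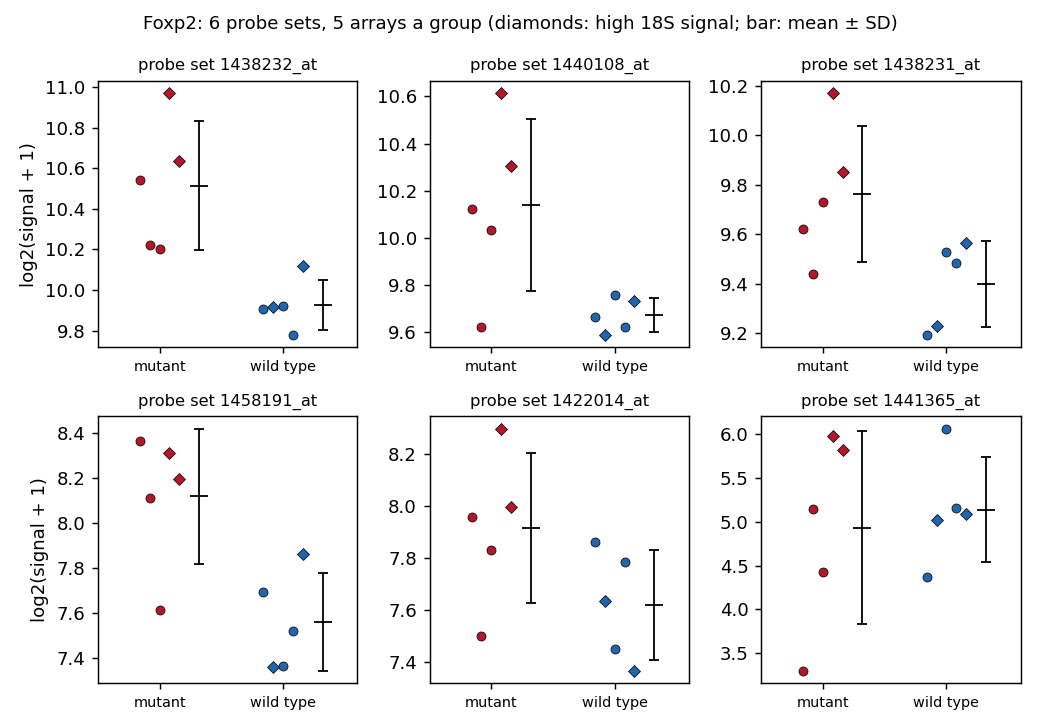
Log2(signal + 1) of the 6 Foxp2 probe sets on each array, mutant left and wild type right; points are arrays, diamonds those with high 18S signal, and bars the mean ± SD of 5 arrays. On the brightest the groups do not overlap, and on the dimmest the mutant mean is the lower one.

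Sums of 2 of the marker lists for the cell types of the dissection also separated the groups. The summed signal of 7 markers of skeletal and trunk mesenchyme ran from 1746 to 2258 in the mutant and 1364 to 1598 in wild type, without overlap, with 3 markers higher and 1 lower at an unadjusted p under 0.05. The mean log2 signal of the same 7 markers overlapped, at 6.30 to 6.84 in the mutant and 5.92 to 6.58 in wild type. In that list Twist1 differed by +0.57 (SE 0.12), Prrx1 by +0.32 (SE 0.13), Pax1 by +1.32 (SE 0.44) and Pax3 by -0.44 (SE 0.14), while the muscle regulators Myf5 and Myod1 were at +0.20 (SE 0.86) and -0.020 (SE 0.26). Prrx1 and Twist1 had the highest signals of the list and so the largest share of its sum. Mutant replicate 4 had the highest Foxp2 signal and the highest sum of this list. It also had the highest sum of the ureteral mesenchyme and smooth muscle list, 5234. By mean log2 signal the skeletal and trunk list was highest on mutant replicate 1, at 6.84, with 6.67 on mutant replicate 4. The summed signal of 6 markers of cap mesenchyme, the nephron progenitors, ran from 2205 to 4392 in the mutant and 4958 to 6393 in wild type, also without overlap, with 6 of 6 lower at an unadjusted p under 0.05. The sum of 6 renal stroma markers ran from 7220.1 to 10126 in the mutant and 7517 to 9474 in wild type, with 1 higher and 1 lower at that threshold. For 6 markers of ureteral mesenchyme and smooth muscle it ran from 1959.6 to 5234 in the mutant and 2251 to 3461 in wild type. Of these 6, 4 were positive, and 1 was higher at that threshold, Tbx18 at +0.46 (SE 0.16). The 2 negative ones were Acta2 at -0.37 (SE 0.39) and Tagln at -0.21 (SE 0.36). For 5 measured neuron and neural crest markers the sum ran from 835 to 1215 in the mutant and 571 to 916 in wild type, with 4 of 5 positive and 1 higher at that threshold, Stmn2 at +0.67 (SE 0.19). Macrophage and leukocyte sums ran from 1198 to 2492 in the mutant and 1289 to 1872 in wild type, with 8 of 8 markers positive and 1 higher at that threshold, C1qa at +0.73 (SE 0.27). Endothelial sums ran from 2884 to 3870.0 in the mutant and 2892 to 3766 in wild type, with 8 of 8 markers positive and 0 under that threshold. Erythroid sums ran from 28672 to 48291 in the mutant and 26166 to 54656 in wild type, with 4 of 6 positive and 0 under it. Over all genes 54.9% were positive, and 3.41% were higher and 2.08% lower at an unadjusted p under 0.05. The markers of a list were read on the same arrays and are not independent of each other. None of these markers was at 0 on any array. The part of these cell types in the Foxp2 difference was not tested, and in bulk RNA fewer cells of a type and less RNA per cell cannot be told apart.

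**Figure D3:**
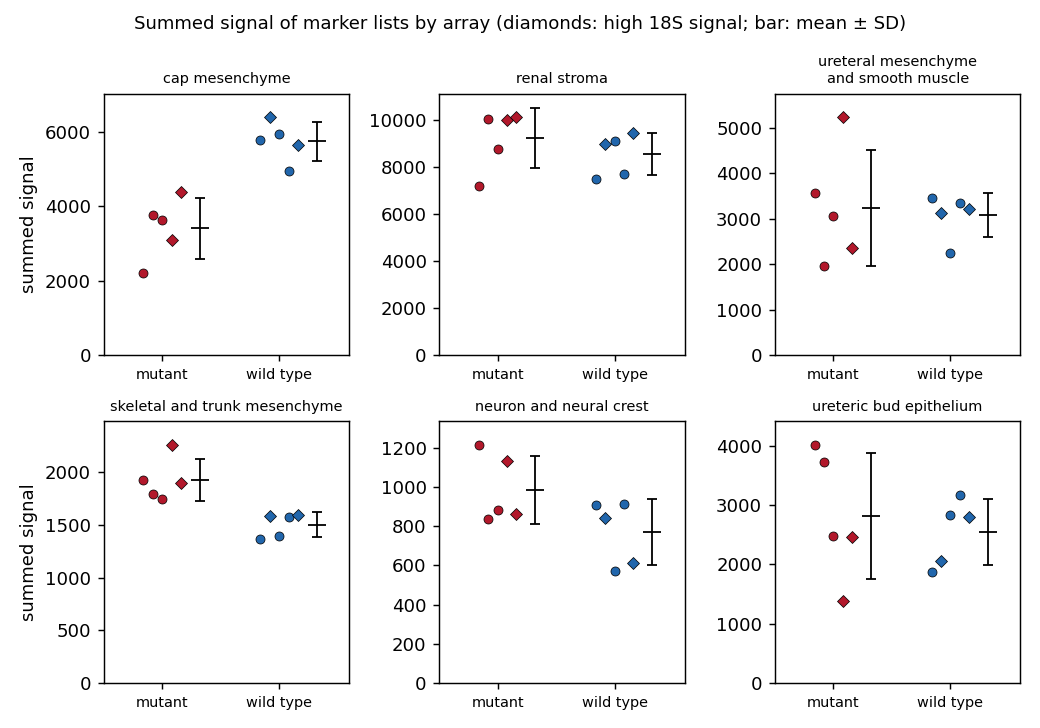
Summed signal of 6 marker lists on each array, mutant left and wild type right; points are arrays, diamonds those with high 18S signal, and bars the mean ± SD of 5 arrays. Cap mesenchyme sums are lower and skeletal and trunk mesenchyme sums higher in every mutant array than in any wild-type array, and the other 4 lists overlap.

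Foxp4, a partner of Foxp2 in lung development, had signals of 329, 654, 390.4, 629 and 567 in mutant replicates 1 to 5, against 265, 445, 343, 254 and 421 in wild-type replicates 1 to 5. Mutant replicates 2, 4 and 5 were above all wild-type arrays, and the other 2 were within their range. The difference was +0.56 (SE 0.25, 95% interval 0.0097 to 1.105), with an unadjusted p of 0.047 that did not pass over all genes (limma adjusted p = 0.90). Its 2 further probe sets gave +0.33 (SE 0.23) and -0.13 (SE 0.25), of opposite sign.

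Foxp1, the forkhead gene with the most probe sets, is a factor of lung, heart and B-cell development. Its signal was 2608, 1585, 2679, 2965 and 2450.3 in mutant replicates 1 to 5, against 2871, 2295, 1886, 2257 and 2396 in wild-type replicates 1 to 5. The groups overlapped, with mutant replicate 2 the lowest array and mutant replicate 4 the highest. The difference was +0.052 (SE 0.18, 95% interval -0.36 to 0.46), and the 8 probe sets lay between -0.0053 and +0.22. Foxp3, the regulator of regulatory T cells, was dim, with signals of 18.2 to 41.5 in the mutant and 22.6 to 49.5 in wild type and a difference of -0.18 (SE 0.28).

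The kidney regulators Foxc1 and Foxc2 had positive differences that did not pass. Foxc1 had signals of 1556, 1949, 1605, 2572 and 2248 in mutant replicates 1 to 5, against 1522, 1789.7, 1863, 1567 and 1825 in wild-type replicates 1 to 5. Mutant replicates 2, 4 and 5 were above every wild-type array, and mutant replicates 1 and 3 lay within the wild-type range. The difference was +0.19 (SE 0.16, 95% interval -0.16 to 0.54, limma adjusted p = 0.99), and the second probe set gave +0.30 (SE 0.18).

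Foxc2, also needed for lymphatic vessels, had signals of 1400.5, 2323, 1762, 2667 and 3262 in mutant replicates 1 to 5, against 1624, 2386, 1701, 1424 and 1856 in wild-type replicates 1 to 5. The mutant arrays were spread wider, with an SD of 0.48 in the mutant and 0.28 in wild type. The difference was +0.30 (SE 0.24, 95% interval -0.23 to 0.83, limma adjusted p = 0.99). The lower ends of the intervals correspond to a mutant level of 0.893 times wild type for Foxc1 and 0.854 times for Foxc2.

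Of 10 measured progenitor regulators listed around the FoxC genes, 6 were lower and 0 higher at an unadjusted p under 0.05. Over all genes 2.08% were lower and 3.41% higher at that threshold, and these shares also stand beside the other gene lists. Of the 10, 0 passed over all genes, and their median difference was -0.59. Cited1, Eya1 and Six2 are also in the cap mesenchyme marker list above, so these lists are not separate results. The growth factor gene Gdnf differed by -1.12 (SE 0.23), Cited1 by -1.11 (SE 0.26), Pax8 by -0.97 (SE 0.28), Eya1 by -0.73 (SE 0.20), Six2 by -0.66 (SE 0.22) and Wt1 by -0.52 (SE 0.19). The other 4 were Sall1 at -0.42 (SE 0.24), Osr1 at -0.038 (SE 0.27), Hoxa11 at +0.054 (SE 0.13) and Hoxd11 at +0.16 (SE 0.14). Whether the FoxC differences stand apart from these was not tested.

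Foxf1 and Foxf2, factors of mesenchyme that respond to hedgehog signals, varied between arrays. Foxf1 had signals of 308, 187, 104, 56.9 and 167 in mutant replicates 1 to 5, against 124, 148, 137, 228 and 218 in wild-type replicates 1 to 5. Both the highest and the lowest array were mutant, and the difference was -0.22 (SE 0.41, 95% interval -1.14 to 0.69). The second, dimmer probe set had signals of 68.7, 68.5, 73.7, 31.96 and 71.7 in mutant replicates 1 to 5, against 8.05, 28.5, 8.54, 9.83 and 72.7 in wild-type replicates 1 to 5. On it wild-type replicate 5 lay among the mutant arrays, and the difference was +1.75 (SE 0.57), with an unadjusted p of 0.012 and a limma adjusted p of 0.93 over all probe sets. The sign for Foxf1 therefore depended on the probe set.

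Foxf2 had signals of 146, 131, 119, 60.1 and 109.8 in mutant replicates 1 to 5, against 80.01, 123, 81.2, 102 and 148 in wild-type replicates 1 to 5, a difference of +0.062 (SE 0.26). Mutant replicate 4 was the lowest array for both FoxF genes on their brightest probe sets. The second Foxf2 probe set was dim, with signals of 2.09 to 25.6 in the mutant and 1.81 to 7.69 in wild type. It gave a difference of +1.01 (SE 0.57). Of 9 measured genes listed around hedgehog signalling, FoxF and FoxL, 1 was higher and 0 were lower at an unadjusted p under 0.05, with a median of +0.22. The higher one was Bmp4, a BMP ligand and not a part of the hedgehog pathway, at +0.38 (SE 0.13). Gli1 and Ptch1, readouts of hedgehog signalling, were at +0.33 (SE 0.28) and +0.22 (SE 0.19). In this list 7 genes were positive and 2 negative, the ligand gene Shh at -1.27 (SE 0.91) and Gli3 at -0.057 (SE 0.13).

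**Figure D4:**
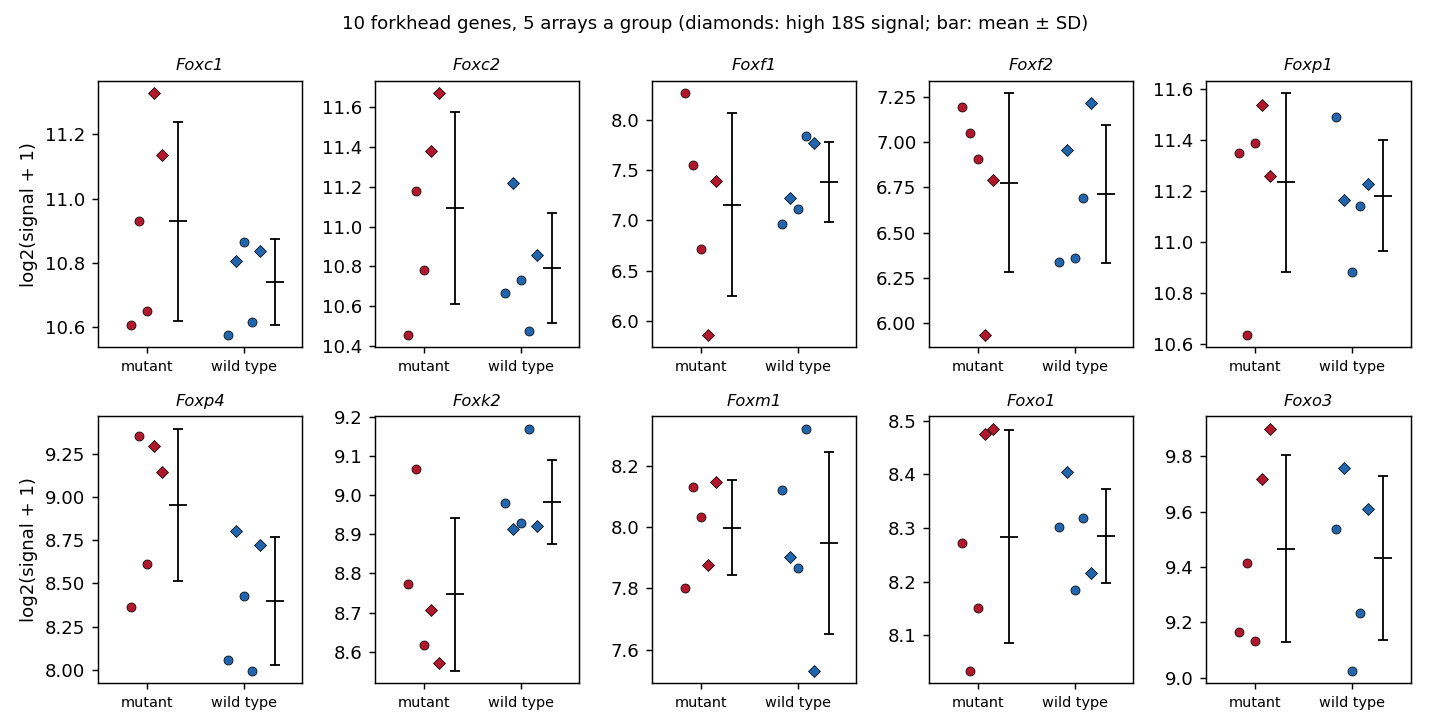
Log2(signal + 1) of 10 forkhead genes on each array, mutant left and wild type right; points are arrays, diamonds those with high 18S signal, and bars the mean ± SD of 5 arrays. The groups overlap for all 10 genes, Foxc1 and Foxc2 are spread wider in the mutant, and mutant replicate 4 is lowest for Foxf1 and Foxf2.

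Several forkhead genes lie side by side in the mouse genome, by the RefSeq gene order. Foxq1, Foxf2 and Foxc1 follow each other on chromosome 13 and differed by +0.21, +0.062 and +0.19. Foxc2 and Foxl1 are neighbours on chromosome 8 and differed by +0.30 and +0.11. Foxd2 and Foxe3 are neighbours on chromosome 4 and differed by +0.091 and +0.13. None of the 7 had an unadjusted p under 0.05, and signs turned in some settings. On the 4 arrays with a high 18S ribosomal RNA control signal, Foxf2 was at -0.73, Foxe3 at -0.30 and Foxq1 at -0.085. Foxl1 was at -0.070 without mutant replicate 1, and the second Foxd2 probe set gave -0.087 (SE 0.59). Foxq1, Foxd2 and Foxe3 were not followed through the other settings. Foxl1, a mesenchymal factor of the gut, was dim at signals of 3.58 to 13.5 in the mutant and 4.68 to 11.6 in wild type. Foxd2, a factor of kidney mesenchyme in the mouse, had signals of 501 to 781 in the mutant and 491 to 609.5 in wild type.

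Foxm1, the activator of genes for the G2 and M phases, had signals of 222, 279, 261, 234 and 283 in mutant replicates 1 to 5, against 278, 239, 232, 319 and 184 in wild-type replicates 1 to 5. The mutant arrays lay within the wild-type range, and the difference was +0.049 (SE 0.16, 95% interval -0.30 to 0.40). Its 3 further probe sets gave +0.012 (SE 0.34), -1.03 (SE 0.91) and -0.46 (SE 0.72). Of 13 measured genes of its programme, Foxm1 included, 0 were higher and 0 lower at an unadjusted p under 0.05 by limma, with a median difference of -0.035. Aurkb, a mitotic kinase, had the smallest p of them, at -0.14 (SE 0.13).

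Foxk2 and Foxk1, which repress autophagy genes and promote glycolysis, were measured with small errors. Foxk2 had signals of 437, 536, 391, 417 and 379 in mutant replicates 1 to 5, against 504, 482, 486, 576 and 484 in wild-type replicates 1 to 5. All mutant arrays except replicate 2 were below every wild-type array. The difference was -0.24 (SE 0.12, 95% interval -0.51 to 0.034), with an unadjusted p of 0.080 and a limma adjusted p of 0.94. Its other 4 probe sets gave -0.074, -0.12, +0.053 and -0.21. Foxk1 was at +0.10 (SE 0.12).

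The FoxO genes carry insulin and growth factor signals to the nucleus, where they act on stress, atrophy and cell cycle exit genes. Foxo1 had signals of 308, 261, 283, 355 and 358 in mutant replicates 1 to 5, against 314, 338, 290.1, 318 and 296 in wild-type replicates 1 to 5, a difference of -0.0018 (SE 0.12, 95% interval -0.27 to 0.26). A dimmer probe set of Foxo1 had signals of 212, 282, 207, 239 and 205 in mutant replicates 1 to 5, against 182, 151, 191, 167 and 198 in wild-type replicates 1 to 5. On that probe set all mutant arrays lay above all wild-type arrays, with +0.36 (SE 0.14), an unadjusted p of 0.026 and a limma adjusted p of 1.00. On the brightest Foxo1 probe set the groups overlapped. The second brightest gave -0.067 (SE 0.18) and the dimmest -0.27 (SE 0.34), so the raised probe set was the only one with a positive difference.

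Foxo3 had signals of 573, 681, 560.4, 841 and 954 in mutant replicates 1 to 5, against 742, 864, 520.2, 601 and 781 in wild-type replicates 1 to 5, a difference of +0.033 (SE 0.20, 95% interval -0.41 to 0.47). Foxo4 was at -0.021 (SE 0.13). Among 14 genes listed as FoxO targets, 1 was lower and 0 were higher at an unadjusted p under 0.05, with a median of +0.072. The lower gene was Cited2, a transcriptional co-regulator, at -0.38 (SE 0.17). Cdkn1b, which encodes the cell cycle inhibitor p27, was at +0.15 (SE 0.29), and Irs2, an insulin receptor substrate, at +0.024 (SE 0.27).

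Of the FoxN and FoxJ genes, none had an unadjusted p under 0.05. Foxn2 had signals of 257, 212, 219, 316 and 269 in mutant replicates 1 to 5, against 307, 318, 316, 242 and 343 in wild-type replicates 1 to 5. Mutant replicates 2 and 3 were the lowest arrays, wild-type replicate 4 lay among the mutant ones, and the difference was -0.27 (SE 0.15, 95% interval -0.59 to 0.059). Foxn3, a checkpoint suppressor, had the narrowest spread of the family, with a difference of +0.16 (SE 0.097, 95% interval -0.051 to 0.38), and its 4 probe sets lay between -0.32 and +0.19. Foxn4, a factor of retinal progenitors, had signals of 31.3, 118, 138, 104 and 111 in mutant replicates 1 to 5, against 68.8, 65.5, 107, 86.5 and 28.8 in wild-type replicates 1 to 5, a difference of +0.45 (SE 0.45). Its groups overlapped, with 1 low array in each. Foxj2 and Foxj3 were at +0.18 (SE 0.14) and -0.13 (SE 0.12).

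Foxj1, the master regulator of motile cilia, was dim, with signals of 15.9, 40.1, 55.3, 2.90 and 27.9 in mutant replicates 1 to 5, against 5.87, 31.7, 5.31, 39.97 and 11.3 in wild-type replicates 1 to 5. High and low arrays stood in both groups, and the difference was +0.52 (SE 0.79). Of 11 measured genes of the motile cilium, 1 was higher and 1 lower at an unadjusted p under 0.05. The axonemal dynein gene Dnah5 was at +0.84 (SE 0.33), and the tektin gene Tekt1 at -0.64 (SE 0.27), with highest signals of 95.01 and 77.8.

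The endoderm factors Foxa1, Foxa2 and Foxa3 had signals of 3.47 to 104 in the mutant and 9.19 to 90.4 in wild type, with differences of -0.22, -0.015 and +0.0056. Foxa1 and Foxa2 were highest on mutant replicate 1, which also had the highest summed signal of 8 ureteric bud markers. That sum was 4008 on this array, and ran from 1382 to 4008 in the mutant and 1867 to 3172 in wild type over all arrays. Mutant replicate 2 had the next highest sum, 3732, with signals of 17.6 for Foxa1 and 21.1 for Foxa2. The part of bud cells in these values was not tested. Foxi1, the factor of intercalated cells of the later collecting duct, had signals of 26.4, 8.32, 8.31, 7.48 and 3.70 in mutant replicates 1 to 5, against 28.5, 7.73, 3.11, 41.4 and 7.20 in wild-type replicates 1 to 5, a difference of -0.39 (SE 0.68). It was highest on wild-type replicates 4 and 1 and mutant replicate 1. Foxb1, Foxb2, Foxd4, Foxe3, Foxh1, Foxn1, Foxq1 and Foxs1 differed by -0.37 to +0.81, with standard errors of 0.29 to 0.67. Foxl2, the ovarian factor, was brighter, with signals of 75.9 to 190.0 in the mutant and 98.2 to 145 in wild type and a difference of -0.020 (SE 0.26).

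Probe sets of the same gene often disagreed. Of 45 further probe sets of the 21 members with more than 1, 29 had the sign of the brightest and 16 the opposite sign. Taken one by one, 7 of 80 forkhead probe sets were higher at an unadjusted p under 0.05, against 2.74% of all probe sets with 1 gene symbol, and 0 were lower, against 2.03%. These 7 were 4 of Foxp2 and 1 each of Foxp4, Foxf1 and Foxo1. The mutant arrays all lay above the wild-type arrays for 2 of 80, 1 of Foxp2 and 1 of Foxo1, against 0.501% of all probe sets.

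**Figure D5:**
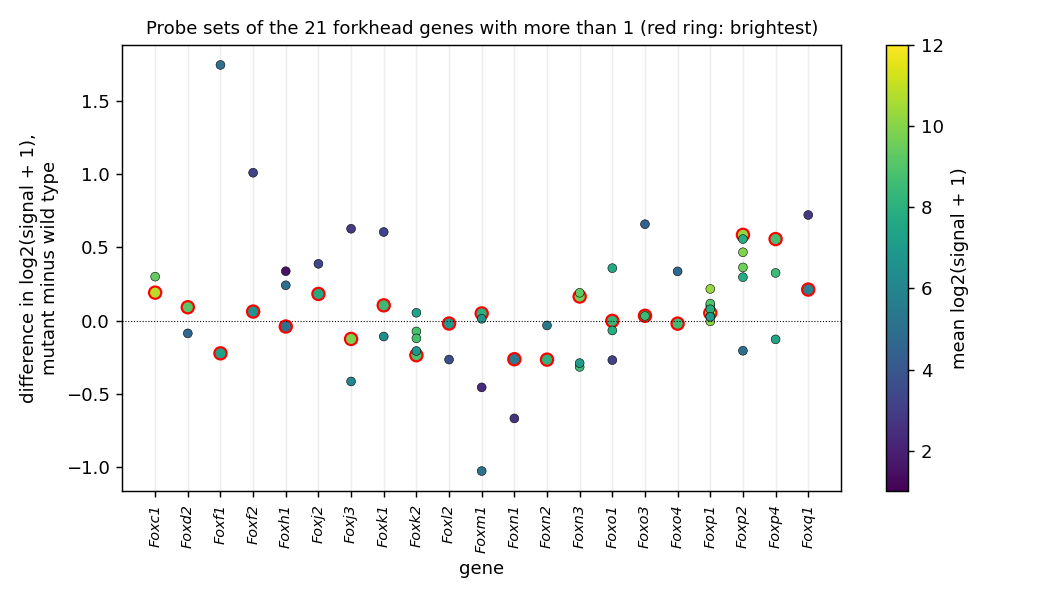
Difference in log2(signal + 1), mutant minus wild type, of each probe set of the 21 forkhead genes with more than 1; colour gives the mean log2(signal + 1) over 10 arrays and a red ring marks the brightest probe set. The widest values, +1.75 for Foxf1 and -1.03 for Foxm1, are not those of brightest probe sets, and 5 of 6 Foxp2 probe sets lie above zero.

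By the 18S ribosomal RNA control signal the arrays formed 2 sets, with 1975 to 2587 on mutant replicates 4 and 5 and wild-type replicates 2 and 5, and 92.4 to 322 on the other 6. The Foxp2 difference was +0.79 and +0.45 in the high and the low set, that of Foxp4 +0.46 and +0.62, that of Foxk2 -0.28 and -0.21, that of Foxc1 +0.41 and +0.044 and that of Foxc2 +0.49 and +0.18, in the same order. For Foxf2 the values were -0.73 and +0.59, and for Foxf1 -0.88 and +0.21. Foxf2 had the smallest p of the family for a change of the difference between sets (unadjusted p = 0.0084, limma adjusted p = 1.00), 1 of 35 members under 0.05 against 3.46% of all genes. Wnt9b itself had signals of 41.8 to 106 in the mutant and 78.2 to 99.7 in wild type (difference -0.24, SE 0.24). Its source, the bud, had been taken off, and it is not known here whether these probes fall inside the deletion, so Wnt9b checks nothing about the labels.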

How the data were processed

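The authors deposited intensities, linear and 1 per probe set, for 10 Affymetrix mouse expression arrays. How they summarised the probes is not given in the sources. The trimmed mean of each array, without 2% at each end, was 250.0, so arrays had been scaled before deposit, and no further normalization was applied. The table held 45101 probe sets, 64 of them controls, and 34945 had 1 gene symbol in the platform annotation, which can be old. All 35 members matched RefSeq by gene identifier. Another 2 probe sets annotated to several genes include a member and were left out, and 7 further family genes listed by RefSeq are not analysed here.

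Of several probe sets for a gene, the brightest on average was used. Mutant and wild type were compared on log2(signal + 1) with limma 3.58.1 in R 4.3.3 (lmFit and eBayes, two-sided, Benjamini-Hochberg over 18193 genes), tested on simulated data. Single probe sets were fitted together over 34945. Tables and figures used Python 3.11.15. The number of arrays limits the precision. Replicate numbers only name arrays.

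Genes chosen to be given array by array were members with an unadjusted p under 0.05 or groups without overlap, 12 members with known roles, and the 3 largest differences each way at a mean log2 signal of at least 6. Of the 12, Foxl1 was given by its ranges only. Of the 5 gene lists, genes under that p, or the one with the smallest p, were named. Other genes named were chosen after their values were seen. The members, the lists and the tests were chosen with earlier results of these data known. Alternatives were the mean of all probe sets, single probe sets, leaving out the dimmest 40% of genes, normalization by quantiles or array medians, a pseudocount of 16, trend and robust moderation, array weights, blocks for titles and 18S, subsets of arrays and leaving out each array. The test of the difference between 18S sets was added after seeing the data.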

Additional observations from a re-analysis of the deposited data

Results flagged for a closer look

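Each of 27 named genes was examined for a single array standing apart within its group, 54 groups of 5 in all. Chance marks about 1 group in 20, and 3 were marked. For Foxn4 this was mutant replicate 1, at a log2 signal of 5.02, with the remaining mutant arrays between 6.71 and 7.12. For Foxk2 it was wild-type replicate 4, at 9.17, with the remaining wild-type arrays between 8.92 and 8.98. For Cited2 it was also wild-type replicate 4, at 9.84, with its group otherwise between 10.32 and 10.49 (log2 signal).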

How the results depend on the processing

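No forkhead gene passed over all genes in any setting run. Apart from single further probe sets, Foxp2 lay between +0.34 and +0.79 in all settings, Foxp4 between +0.25 and +0.70 and Foxk2 between -0.33 and -0.12. Foxp2 was lowest among the settings that omit 1 array when mutant replicate 4 was omitted, at +0.47. With the replicate block for arrays whose titles share wording, Foxp2 was at +0.59 (SE 0.13, limma adjusted p = 0.64). Arrays without such a partner formed a level of this block together. The block changed no forkhead call. Deviations of the 3 such pairs correlated at 0.098, 0.099 and 0.14. Among the arrays of the other group, each array correlated best with its partner, a hint from the data and not from the design. The partners of each pair also lay in the same set by 18S signal, and the part of that set in these correlations was not tested. The title of mutant replicate 2 also resembles that of wild-type replicate 4, so the pairing by title involved a choice.

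Members higher at an unadjusted p under 0.05 were 2 as reported, 0 with the mean of all probe sets, 7 among single probe sets, and 1 with quantile normalization, median centring, array weights or without the 2 arrays with bright hybridisation controls. On omitting 1 array they were 1 to 3, with 1 for mutant replicates 2, 4 and 5 and wild-type replicates 3 and 4, and 3 for mutant replicate 1. Lower members were 0 as reported, 1 with median centring, array weights or without the 2 bright arrays, and 0 to 1 on omitting 1 array, with 1 for mutant replicates 2 and 4 and wild-type replicate 4. Members without overlap and higher were 1 as reported, 0 with the mean of all probe sets or median centring, 2 among single probe sets and in the low-18S arrays, 10 in the high-18S arrays, which hold 2 arrays a group, and 1 to 2 on omitting 1 array, with 2 for wild-type replicate 4. Members without overlap and lower were 0 as reported, 7 in the high-18S arrays, 1 without the 2 bright arrays, and 0 to 1 on omitting 1 array, with 1 for mutant replicate 2. Groups of fewer arrays separate more easily, and the share over all genes was not counted in these subsets. The 10 and 7 members of the high-18S arrays thus have no background to be read against. Genes called over the whole table were 1 as reported, 3 among single probe sets, 6 without the dimmest genes and 10 with trend and robust moderation. They were 0 with the mean of all probe sets, either block, either 18S set alone or without the 2 bright arrays, and 0 to 2 on omitting 1 array, with 2 for wild-type replicate 5 and 0 for each of the others.

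Among the 16 forkhead genes followed through the settings, these values had the opposite sign to the one reported, and the cause was not tested. With the mean of all probe sets there were Foxf1 at +0.76, Foxm1 at -0.36 and Foxo1 at +0.0048. With median centring there were Foxm1 at -0.0087, Foxo3 at -0.025 and Foxp1 at -0.0057. With array weights there were Foxf2 at -0.059 and Foxo1 at +0.024. The high-18S arrays alone gave Foxf2 at -0.73, Foxj1 at -0.92 and Foxo1 at +0.17, and the low-18S arrays alone gave Foxf1 at +0.21, Foxm1 at -0.11, Foxn4 at -0.10, Foxo3 at -0.028 and Foxp1 at -0.047. Without the 2 bright arrays there were Foxf2 at -0.095, Foxj1 at -0.021, Foxm1 at -0.0051, Foxo1 at +0.036 and Foxo3 at -0.056. Single further probe sets gave +1.75 for Foxf1, +0.053 for Foxk2, -1.03 and -0.46 for Foxm1, +0.36 for Foxo1, -0.0053 for Foxp1, -0.21 for Foxp2 and -0.13 for Foxp4. On omitting 1 array the ranges spanned zero, at -0.50 to +0.10 for Foxf1, -0.043 to +0.27 for Foxf2, -0.81 to +0.035 for Foxi1, -0.070 to +0.35 for Foxl1, -0.055 to +0.14 for Foxm1, -0.052 to +0.061 for Foxo1, -0.076 to +0.12 for Foxo3 and -0.023 to +0.20 for Foxp1.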
